A study of Mus musculus with 6 samples.

Results

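The genes described here are 34 genes of cholesterol and fatty acid synthesis that are controlled by, or control, the sterol regulatory element binding proteins (SREBPs). They were chosen by gene symbol from a list of pathway members, and all 34 were found among the 16081 genes listed in the RNA-seq tables. By role, the list was divided into 19 sterol genes, 10 fatty acid genes and 5 regulators. Expression was measured in Lewis cells, a mouse lung carcinoma line, after 24 hours with the solvent DMSO (n = 3) or with SD70 (n = 3), an inhibitor of the histone demethylase KDM4C. Both groups were the same line without any genetic change named in the labels, and the dose of SD70 used for sequencing is not given in the sources used here. The labels do not say whether the 3 samples of a group came from separate cultures, and the methods speak of independent repeats only for the experiments in general, so each p-value measures the spread between these samples, which may be technical.

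SREBPs are made as precursors held in the membrane of the endoplasmic reticulum. When sterols are scarce, the escort protein SCAP carries the precursor to the Golgi, where proteases release the part that enters the nucleus and switches on genes of lipid synthesis. When sterols are plentiful, INSIG proteins retain SCAP. SREBP-2, encoded by Srebf2, acts mainly on cholesterol synthesis, and the SREBP-1 forms, encoded by Srebf1, act mainly on fatty acid synthesis. Proliferating tumor cells use both products for membranes.

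Start-site sequences were read from the RefSeq promoter table (GRCm38.p6), which holds 300 bases per window, 250 before and 50 after the annotated start. Of the 34 genes, 27 had at least 1 window, 36 windows in all. Sqle, Fdft1, Scd1, Stard4, Fdps, Fads1 and Scd2 had none. Each window was searched on both strands for TCACNCCAC (a sterol regulatory element, the kind of sequence that SREBPs bind), CACGTG (an E-box) and CCAAT (the core bound by NF-Y, a factor known to work with SREBP at sterol genes). In the windows of these genes, matches to different motifs did not overlap. Hmgcs1 and Msmo1 are shown because they changed in opposite directions within the sterol pathway, and Elovl6 because it had the most negative fold change of the fatty acid genes. In the RefSeq gene table (GRCm38.p6) Hmgcs1 (gene ID 208715) lies at chr13:119690351-119708260, Msmo1 (66234) at chr8:64718123-64733578 and Elovl6 (170439) at chr3:129532386-129638495. The windows are chr13:119690101-119690400 on the plus strand for Hmgcs1, chr8:64733529-64733828 on the minus strand for Msmo1 and chr3:129532136-129532435 on the plus strand for Elovl6. Capitals mark the matches, with CCAAT on the opposite strand reading ATTGG.
Hmgcs1: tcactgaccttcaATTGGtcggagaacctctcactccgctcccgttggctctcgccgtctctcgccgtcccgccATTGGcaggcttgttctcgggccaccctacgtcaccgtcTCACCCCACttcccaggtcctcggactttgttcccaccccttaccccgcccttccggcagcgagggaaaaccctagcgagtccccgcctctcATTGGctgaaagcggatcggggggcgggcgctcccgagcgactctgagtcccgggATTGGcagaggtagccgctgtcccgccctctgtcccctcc
Msmo1: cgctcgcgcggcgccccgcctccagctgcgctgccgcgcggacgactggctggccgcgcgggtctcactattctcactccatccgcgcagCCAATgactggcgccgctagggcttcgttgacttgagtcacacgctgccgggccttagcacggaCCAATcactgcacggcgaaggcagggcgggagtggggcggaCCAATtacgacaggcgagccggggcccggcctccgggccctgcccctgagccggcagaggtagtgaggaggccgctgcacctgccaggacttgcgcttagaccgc
Elovl6: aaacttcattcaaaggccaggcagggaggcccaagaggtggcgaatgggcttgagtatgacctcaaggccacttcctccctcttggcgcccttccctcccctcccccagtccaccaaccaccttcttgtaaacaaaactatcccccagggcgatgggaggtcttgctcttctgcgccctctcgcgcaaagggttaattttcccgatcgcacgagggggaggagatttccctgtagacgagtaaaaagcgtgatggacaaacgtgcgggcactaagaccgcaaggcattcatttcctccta

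The Hmgcs1 window held 1 match to TCACNCCAC, from position -137 to -129 relative to the RefSeq start, and 4 to CCAAT. As a check, bases after the start were searched in the gene's transcripts of a second annotation, GENCODE. They were found in 3 transcripts for Msmo1 and 3 for Elovl6 but in 0 for Hmgcs1. The Hmgcs1 start and the positions counted from it thus rest on RefSeq alone. The Msmo1 window held 3 matches to CCAAT, beginning at -160, -96 and -55, and no match to the other motifs. The Elovl6 window held none of the 3 motifs, which says only that these letters are not in this window. Across the 27 genes with a window, Hmgcs1 was the only one with TCACNCCAC, which was present in 1.24% of all 32851 windows and in 1.31% of the 9284 tested genes with a window. CACGTG was present in 5 of the 27 genes, Dhcr7, Hsd17b7, Insig1, Sc5d and Scap, against 11.9% of tested genes and 7.15% of all windows. CCAAT was present in 22 of the 27 genes (81.5%), against 44.3% of tested genes and 37.4% of all windows. These are descriptions of letters, and binding was not measured.

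Of the 34 genes, 33 had enough counts to be tested and Tm7sf2 did not. With SD70, 19 of the 33 fell and 3 rose at an adjusted p under 0.01 (edgeR quasi-likelihood test, Benjamini-Hochberg adjustment over all 11552 genes tested), and 11 did not pass. At an adjusted p under 0.05, 23 were lower and 3 higher, and 60.2% of all genes tested passed in either direction. At 0.01, the same test called 24.2% of all genes tested lower, 25.8% higher and 49.9% in either direction. Of the same 11552 genes, DESeq2 called 20.2% lower and 22.3% higher, and edgeR at an unadjusted p under 0.05 gave 31.4% lower and 32.2% higher, the shares to set beside such counts further on. The share of the 33 that passed in either direction was 66.7%, made up of 57.6% that fell and 9.09% that rose. The median log2 fold change of the 33 genes was -0.25, where that of all genes tested was -0.0043. No gene of the list passed both the test and an absolute log2 fold change of 1, whether by edgeR, by edgeR at an unadjusted p under 0.05 or by DESeq2, while 5.9% of all genes tested passed both by edgeR. The fold changes ran from -0.72 for Elovl6 and Acat2 to 0.68 for Msmo1. In 21 of the 33 genes every SD70 sample lay below every DMSO sample, in 3 every SD70 sample lay above, and in 9 the groups overlapped. Among all genes tested, the groups were separate in 64.4%, with SD70 below in 31.6% and with SD70 above in 32.8%. In bulk RNA, fewer cells of a type and less RNA per cell cannot be told apart.

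**Figure D1:**
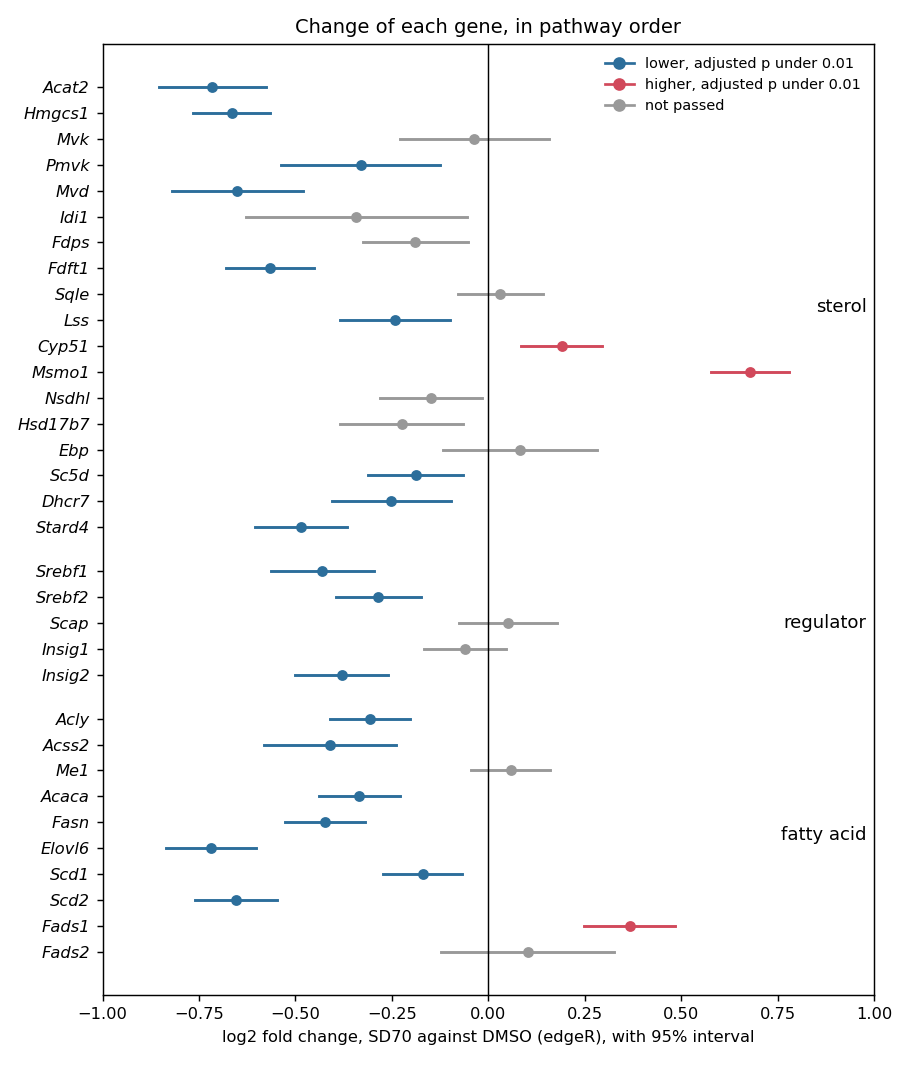
Log2 fold change of SD70 against DMSO for the 33 tested genes (points, edgeR) with 95% interval (lines), in pathway order within the sterol, regulator and fatty acid groups. Blue and red mark genes that were lower or higher at an adjusted p under 0.01 and grey those that did not pass. Points on the left side prevail down to Lss, Cyp51 and Msmo1 lie on the right, and Fads1 is the one fatty acid gene that was higher.

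Genes from acetyl-CoA to lanosterol, the first stretch of the sterol pathway, fell or did not pass. Of these 10 enzymes, 6 fell and the median log2 fold change was -0.34. DESeq2 called 4 of the 10 lower, and neither tool called any higher, also at an unadjusted p under 0.05. Values for single genes are given as normalized counts, meaning counts brought to a common library size after TMM scaling. Hmgcs1 makes HMG-CoA, an early intermediate of the pathway. It was counted 3324, 3330 and 3275 times under DMSO against 2130, 2097 and 2032 times under SD70. The groups lay far apart beside a spread of 30.2 (SD, n = 3) in DMSO and 49.9 (SD, n = 3) in SD70, and the log2 fold change was -0.67 ± 0.05 (SE) with an adjusted p of 9.92e-14 by edgeR. Acat2, a cytosolic thiolase that joins acetyl-CoA units, was counted 915, 1048 and 971 times under DMSO against 613, 632 and 540 times under SD70. The log2 fold change was -0.72 ± 0.07 (SE), with an adjusted p of 4.46e-11 by edgeR and every SD70 sample lower. Acat3, which lies beside Acat2 and is similar to it, had at most 12.1 counts in any sample.

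Mvd, which decarboxylates mevalonate diphosphate, was counted 419, 437 and 445 times under DMSO against 251, 306 and 272 times under SD70. All 3 SD70 samples were lower, at a log2 fold change of -0.65 ± 0.08 (SE) and an adjusted p of 3.07e-08 by edgeR. Fdft1, or squalene synthase, carries out the first step committed to sterols. It was counted 1444, 1464 and 1409 times under DMSO against 990, 995 and 931 times under SD70, a log2 fold change of -0.56 ± 0.06 (SE) with an adjusted p of 1.29e-10 by edgeR. Its exons share up to 774 bases with those of Ctsb on the other strand. Ctsb averaged 18719.5 normalized counts in DMSO and 18599.4 in SD70, far above Fdft1, at a log2 fold change of -0.01 (adjusted p = 0.88 by edgeR). Whether the counting used strand is not given in the sources used here. Smaller decreases were found for Pmvk, which phosphorylates phosphomevalonate (237 ± 4.79 to 188 ± 22.1, SD, n = 3, adjusted p = 0.0055 by edgeR), and Lss, which closes the sterol rings (628 ± 39.7 to 530 ± 21.9, SD, n = 3, adjusted p = 0.0034 by edgeR). Both calls were lost in several settings. With all samples, DESeq2 gave an adjusted p of 0.031 for Pmvk and 0.013 for Lss. Pmvk had an adjusted p of 0.018 without DMSO replicate 1, 0.013 without DMSO replicate 2, 0.033 without SD70 replicate 1 and 0.026 without SD70 replicate 3, all by edgeR. Lss had 0.018 without DMSO replicate 2, 0.019 without DMSO replicate 3 and 0.019 without SD70 replicate 1, and 0.16 by limma on FPKM.

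Other enzymes of the same stretch did not pass. Idi1, which isomerizes isopentenyl diphosphate, had a log2 fold change of -0.34 with a 95% interval from -0.63 to -0.06. Without SD70 replicate 1, Idi1 had -0.51 and passed (adjusted p = 6.27e-07 by edgeR). With all samples, Idi1 also passed when the filter was 1 count in any sample (adjusted p = 8.19e-07 by edgeR). Fdps, which makes farnesyl diphosphate, had -0.19 with an interval from -0.33 to -0.05. Without SD70 replicate 2, Fdps had -0.30 and passed (adjusted p = 0.00013 by edgeR). With all samples, Fdps also passed with library totals (adjusted p = 0.0058 by edgeR). It passed too when the filter was 1 count in any sample (0.0023) or 10 in every sample (0.0095). For Mvk, or mevalonate kinase, the estimate was -0.04 with an interval from -0.23 to 0.16. Sqle, the squalene epoxidase, averaged 1415 ± 57.4 counts under DMSO against 1447 ± 11.4 under SD70 (SD, n = 3). The interval of its log2 fold change ran from -0.08 to 0.14, next to the decreases of Fdft1 just before it and Lss just after it.

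Of the 7 tested genes from lanosterol to cholesterol, 2 rose, 2 fell and 3 did not pass, and the median log2 fold change was -0.15. The 28.6% in each direction was near the 25.8% higher and 24.2% lower over all genes tested. At this threshold, the counts thus set this stretch apart in neither direction. DESeq2 called the same number higher and 0 lower. At an unadjusted p under 0.05, edgeR gave 4 lower and 2 higher. Msmo1, the sterol C4 methyl oxidase, was counted 2865, 3027 and 3016 times under DMSO against 4887, 4655 and 4712 times under SD70. Every SD70 sample was higher than every DMSO sample, with a log2 fold change of 0.68 ± 0.05 (SE), an increase of 60.0% and an adjusted p of 5.31e-14 by edgeR. Cyp51, which removes the C14 methyl group of lanosterol, was counted 2058, 2238 and 2189 times under DMSO against 2493, 2509 and 2394 times under SD70. The groups were separate but close, at a log2 fold change of 0.19 ± 0.05 (SE) and an adjusted p of 0.0020 by edgeR, which was 0.021 without DMSO replicate 1 and 0.022 by limma on log2(FPKM + 1). Its exons share 166 bases with Akap9 on the other strand, whose log2 fold change was also 0.19.

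The later enzymes Sc5d (1559 ± 44.5 to 1366 ± 132, SD, n = 3) and Dhcr7 (512 ± 22.6 to 429 ± 37.6, SD, n = 3), which finish the sterol rings, fell at adjusted p-values of 0.0075 and 0.0049 by edgeR. For Sc5d this p was 0.018 without DMSO replicate 2, 0.028 without DMSO replicate 3 and 0.089 without SD70 replicate 3. For Dhcr7 it was 0.029 without DMSO replicate 3, 0.010 without SD70 replicate 2 and 0.043 without SD70 replicate 3. With all samples, the adjusted p by DESeq2 was 0.018 for Sc5d and 0.022 for Dhcr7. By limma, that of Sc5d was 0.080 on log2(FPKM + 1) and 0.077 on log2(FPKM + 0.1). Nsdhl and Hsd17b7, which complete the removal of the C4 methyl groups with Msmo1, had log2 fold changes of -0.15 and -0.22 and did not pass. Hsd17b7 had -0.31 and passed without DMSO replicate 1 (adjusted p = 0.0014 by edgeR). With all samples, Hsd17b7 also passed with library totals (0.0049 by edgeR) and with 1 count in any sample as the filter (0.0064). Ebp, which shifts a ring double bond, had 0.08 with an interval from -0.12 to 0.28. Tm7sf2, a sterol C14 reductase, was filtered out, with 6, 9 and 4 normalized counts in DMSO and 5, 21 and 12 in SD70. Stard4 is not an enzyme but carries cholesterol between membranes. It fell from 1507 ± 1.54 to 1075 ± 88.5 counts (SD, n = 3), a log2 fold change of -0.49 ± 0.06 (SE) with an adjusted p of 9.77e-09 by edgeR. Over all 18 tested sterol genes, 9 fell and 2 rose, with a median of -0.23. DESeq2 called 5 lower and 2 higher.

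Among the 5 regulators, 3 fell, 2 did not pass and the median was -0.28. Srebf1 was counted 1288, 1164 and 1202 times under DMSO against 798, 942 and 973 times under SD70. All SD70 samples were lower, by 0.43 on the log2 scale against DMSO (SE 0.07, adjusted p = 1.06e-06 by edgeR). Srebf1 exons share 109 bases with Rai1 on the other strand, whose log2 fold change was 0.14. Srebf2 fell from 2972 ± 86.5 to 2439 ± 183 counts (SD, n = 3), a log2 fold change of -0.28 ± 0.05 (SE) with an adjusted p of 2.72e-05 by edgeR. Insig2, one of the retention proteins, was counted 1440, 1366 and 1444 times under DMSO against 1167, 1001 and 1099 times under SD70. Its log2 fold change was -0.38 ± 0.06 (SE), with an adjusted p of 1.26e-06 by edgeR and no overlap between groups. Insig1, its relative and itself a well known SREBP target, was counted 2327, 2405 and 2232 times under DMSO against 2236, 2313 and 2125 times under SD70. These groups overlapped, and the interval of the log2 fold change ran from -0.17 to 0.05. Scap averaged 978 ± 11.6 counts under DMSO against 1014 ± 94.2 under SD70 (SD, n = 3), with an interval from -0.08 to 0.18.

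Fatty acid genes mostly fell, 7 of 10, with 1 higher, 2 that did not pass and a median log2 fold change of -0.32. DESeq2 gave the same numbers. Genes that supply acetyl-CoA came first, and of these Acly (2520 ± 45.9 to 2037 ± 66.5, SD, n = 3, log2 fold change -0.31), which cleaves citrate, and Acss2 (349 ± 20.0 to 262 ± 5.37, SD, n = 3, log2 fold change -0.41), which activates acetate, fell. The adjusted p-values were 3.71e-06 and 7.81e-05 by edgeR. Acss2 shares exon bases with Ggt7 and Gss on the other strand, whose log2 fold changes were -1.46 and 0.50. Me1, a source of NADPH, had a log2 fold change of 0.06 with an interval from -0.04 to 0.16. Acaca, which makes malonyl-CoA, fell from 2376 ± 78.0 to 1885 ± 61.1 counts and Fasn, which builds palmitate from it, from 3738 ± 127 to 2787 ± 134 (SD, n = 3). Their log2 fold changes were -0.33 and -0.42, with adjusted p-values of 1.27e-06 and 8.45e-09 by edgeR.

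Elovl6 lengthens palmitate to stearate. It was counted 2185, 2226 and 2074 times under DMSO against 1431, 1263 and 1246 times under SD70, which put all SD70 samples well below the DMSO samples. The log2 fold change was -0.72 ± 0.06 (SE), and expression decreased by 39.2%, with an adjusted p of 5.66e-13 by edgeR. Scd2, one of the stearoyl-CoA desaturases that make oleate, was counted 13371, 13170 and 13371 times under DMSO against 8303, 9185 and 7870 times under SD70. It fell by 0.65 on the log2 scale (SE 0.05, adjusted p = 4.67e-13 by edgeR). Scd1, its neighbor on chromosome 19, was counted 3794, 3561 and 3507 times under DMSO against 3223, 3328 and 3104 times under SD70. The log2 fold change of Scd1 was -0.17 ± 0.05 (SE) with an adjusted p of 0.0042 by edgeR, and this p was 0.036 without DMSO replicate 1 and 0.020 without SD70 replicate 3. Scd3 and Scd4 had at most 9 counts in any sample.

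Fads1 and Fads2, on the same chromosome, desaturate polyunsaturated fatty acids. Fads1 was counted 1033, 1146 and 1097 times under DMSO against 1361, 1384 and 1479 times under SD70. All SD70 samples were higher, at a log2 fold change of 0.37 ± 0.06 (SE) and an adjusted p of 1.57e-06 by edgeR. Fads2 had 168 ± 15.6 and 180 ± 18.0 counts (SD, n = 3), with an interval from -0.12 to 0.33.

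**Figure D2:**
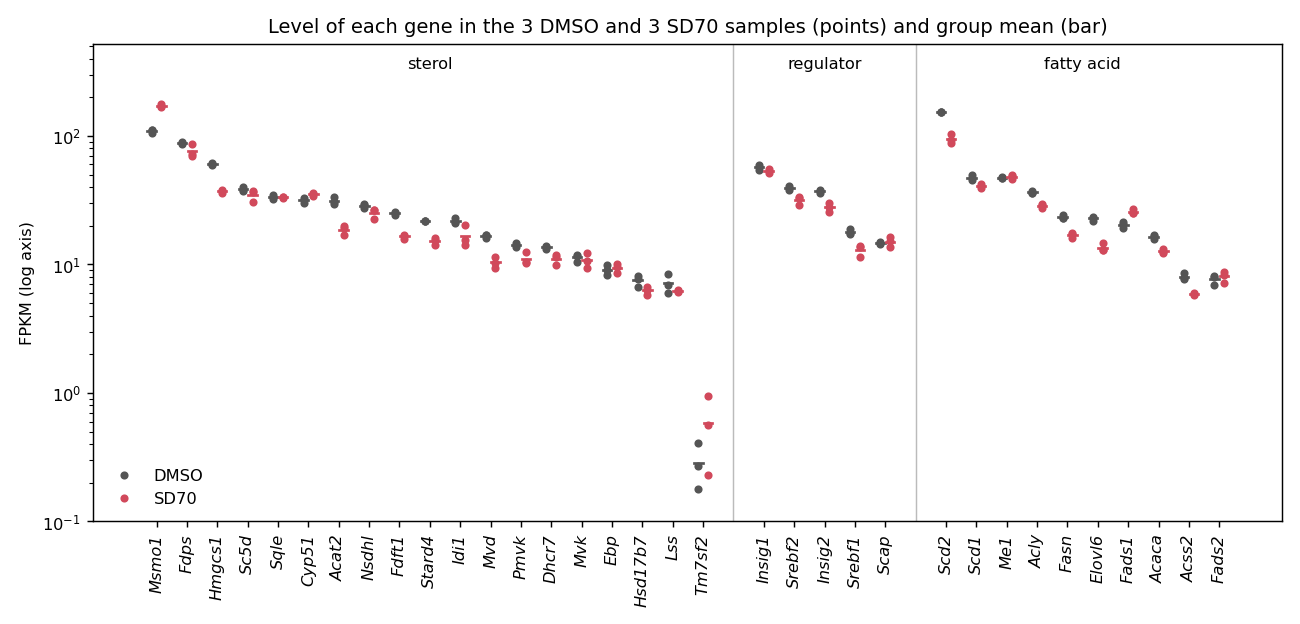
FPKM (log axis) of each of the 34 genes in every DMSO (grey) and SD70 (red) sample, with the group mean as a bar. Scd2 and Msmo1 are the highest, Tm7sf2 is far below the others, and the points of Hmgcs1, Msmo1, Scd2 and Elovl6 are separated by treatment.

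Levels per gene length were compared in FPKM, which corrects for length and library size. Scd2 had the highest level in DMSO, 154 ± 0.934 FPKM (SD, n = 3), followed by Msmo1 with 110 ± 3.08 and Fdps with 88.0 ± 1.09. With SD70 the order of the first 2 was exchanged, Msmo1 at 172 ± 4.25 and Scd2 at 95.5 ± 7.69 FPKM (SD, n = 3). Among tested genes Lss was lowest in DMSO at 7.13 FPKM, and Tm7sf2 had 0.287. Summed over the fatty acid genes, FPKM was 387, 382 and 383 with DMSO and 294, 308 and 288 with SD70, and these ranges were apart. Summed over the sterol genes it was 557, 579 and 574 with DMSO and 554, 562 and 522 with SD70, so the groups overlapped. By stretch, the sums were 304, 316 and 309 FPKM against 235, 252 and 224 for the enzymes up to lanosterol and 231, 241 and 243 against 304, 294 and 284 for those after lanosterol. Msmo1 carried the higher sum after lanosterol. Without it the other 6 tested genes of that stretch summed to 125, 129 and 133 FPKM with DMSO and 127, 126 and 113 with SD70, which overlapped.

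To see whether the branches moved in each sample, the log2 counts of each gene were set against its DMSO mean and averaged. The mean deviation of the sterol genes was -0.21, -0.17 and -0.31 in the SD70 samples, and that of the fatty acid genes was -0.25, -0.22 and -0.28. The regulators had -0.29, -0.21 and -0.17. Enzymes up to lanosterol had -0.39, -0.29 and -0.45, and those after lanosterol 0.09, 0.03 and -0.07. In the DMSO samples these means ran from -0.07 to 0.06, a range that understates the spread, since these samples set the mean they are compared with. No test of one branch against the other was made, since genes are not replicates.

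**Figure D3:**
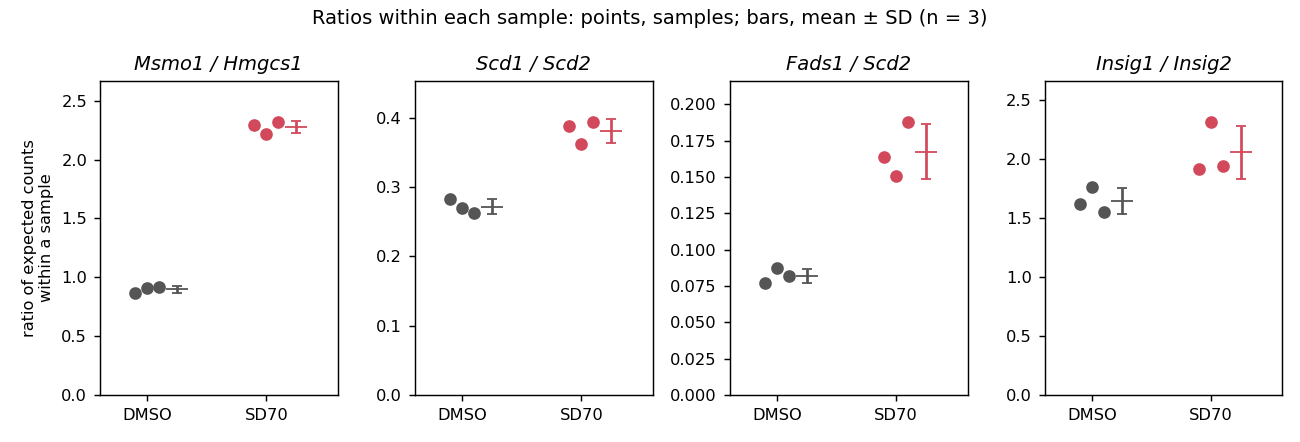
Ratio of counts of a pair of genes within each sample (points), with mean ± SD (n = 3), for DMSO (grey) and SD70 (red). The samples are apart in all 4 panels, and the widest gap is that of Msmo1 to Hmgcs1, from 0.897 with DMSO to 2.28 with SD70.

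A ratio of 2 genes within a sample does not depend on library scaling, and 8 such ratios were computed on pairs chosen after the values were seen. Msmo1 to Hmgcs1 was 0.862, 0.909 and 0.921 with DMSO and 2.29, 2.22 and 2.32 with SD70. Scd1 to Scd2 was 0.284, 0.270 and 0.262 with DMSO and 0.388, 0.362 and 0.394 with SD70. Insig1 to Insig2 was 1.62, 1.76 and 1.55 with DMSO and 1.92, 2.31 and 1.93 with SD70. Fads1 to Scd2 was 0.0821 ± 0.00488 with DMSO and 0.167 ± 0.0188 with SD70 (SD, n = 3). In each the groups were apart, and an exact two-sided permutation test gave p = 0.1, the smallest that 3 against 3 samples allow. A ratio shows unequal change of its genes and not which one changed.

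**Figure D4:**
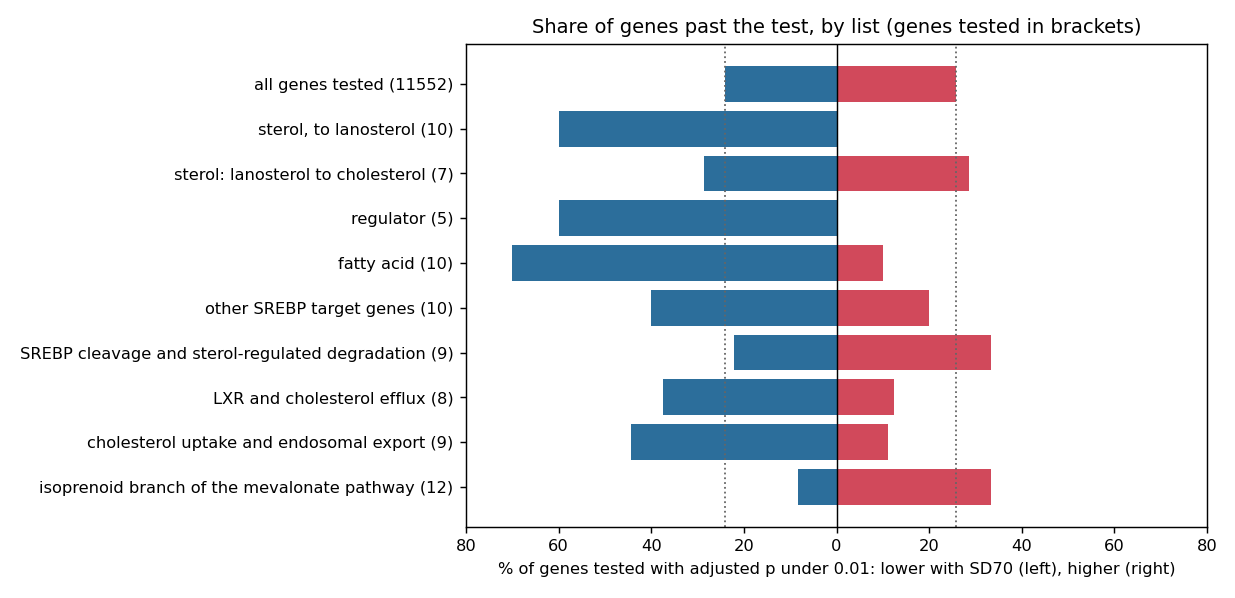
Percent of tested genes that were lower (blue, left) or higher (red, right) with SD70 at an adjusted p under 0.01, for all genes tested, the groups of the 34 genes and lists of related genes, with the number tested in brackets. Dotted lines mark the shares over all genes tested, 24.2% lower and 25.8% higher, and the fatty acid, regulator and first sterol groups reach furthest to the left.

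Related genes outside the 34 were counted in lists by function. Of 10 other SREBP target genes tested and counted here, 4 fell and 2 rose, with a median log2 fold change of -0.02. Over all genes tested, 24.2% were lower and 25.8% higher. Lpin1, a phosphatidate phosphatase, fell by 0.80 on the log2 scale (adjusted p = 4.05e-13 by edgeR). Acacb, the mitochondrial relative of Acaca, and Slc25a1, which carries citrate out of mitochondria, fell by 0.67 and 0.42 on the same scale. Mid1ip1, an activator of acetyl-CoA carboxylase, rose by 0.84 (adjusted p = 2.54e-13 by edgeR), against the direction of Acaca and Fasn.

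Of 9 genes of SREBP cleavage and sterol-regulated degradation counted here, 3 rose (33.3%) and 2 fell (22.2%), with a median of 0.02. These shares were near the 25.8% higher and 24.2% lower over all genes tested. The same shares stand beside the counts of the lists that follow, and no list was tested against them. Rnf145, a ubiquitin ligase that acts on SCAP, had the most negative value, -0.90 (adjusted p = 5.89e-16 by edgeR), followed by Trib1 with -0.53. Erlin1, an endoplasmic reticulum protein, and Faf2, which works in degradation from that membrane, rose by 0.41 and 0.26. Of 8 tested genes of LXR (a sterol-sensing receptor) and cholesterol efflux, with a median of -0.04, 3 fell, among them the transporters Abca7 (-0.79) and Abcg1 (-0.46) and the receptor gene Nr1h2 (-0.25), and Nceh1 rose (0.29). Of 9 tested genes of cholesterol uptake and endosomal export, with a median of -0.09, 4 fell, among them the receptor Scarb1 (-0.48), the sterol carrier Osbp (-0.37) and Lrp1 (-0.25), and Osbpl9 rose (0.44). In the isoprenoid branch, which uses farnesyl diphosphate for other products, 4 of 12 rose and 1 fell, with a median of 0.05. Pdss1 (0.69) and Coq2 (0.29) of coenzyme Q synthesis and the prenyltransferase subunit Pggt1b (0.63) rose, and the methyltransferase Icmt (-0.50) fell. The Coq2 groups overlapped, at 317, 328 and 367 counts under DMSO and 357, 426 and 453 under SD70, and its call held in 6 of 14 alternative settings. Its adjusted p by edgeR was 0.030 without DMSO replicate 1, 0.028 without DMSO replicate 2, 0.027 without SD70 replicate 2 and 0.055 without SD70 replicate 3. The remaining isoprenoid gene that rose, not named for its smaller change, also lost its call in some settings. Its adjusted p by edgeR was 0.014 without DMSO replicate 2, 0.012 without DMSO replicate 3 and 0.016 without SD70 replicate 3. The count of 4 was thus lower in these settings. Among the other related genes named here, Nr1h2 did not pass without DMSO replicate 1 (adjusted p = 0.014 by edgeR) and Acacb did not pass by limma on log2(FPKM + 0.1) (adjusted p = 0.011).

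Library totals ran from 15276744 to 17060424 counts and the 34 genes held 0.379% to 0.382% of the counts in DMSO samples and 0.300% to 0.319% in SD70 samples. The labels call the cells lung adenocarcinoma, but the epithelial markers Epcam, Krt19 and Cdh1 were at no more than 1 count in every sample, and the alveolar marker Sftpc likewise. The 2 listed alveolar markers summed to between 65.1 and 82.8 normalized counts with DMSO and 64.5 and 88.0 with SD70. The 5 epithelial markers, mostly Krt8, summed to between 3916 and 4106 normalized counts with DMSO and 2573 and 2896 with SD70, and the 2 that were tested, Krt8 (-0.55) and Krt18 (-1.22), both fell on the log2 scale. The sum of the 6 fibroblast markers, between 67476 and 74952 with DMSO and 49952 and 54450 with SD70, was mostly Vim, and the markers went both ways. Vim fell by 0.47 on the log2 scale, Pdgfra fell from 1753 to 877 normalized counts, Pdgfrb rose by 1.54, from 552 to 1606 normalized counts, and Col1a1 and Col1a2 were below the filter. The 6 listed leukocyte markers summed to between 261 and 271 with DMSO and 187 and 220 with SD70, mostly Cd68, which fell by 0.48. Lyz2 had 0.79 and higher values in every SD70 sample but did not pass, Ptprc was listed at 0 in every DMSO sample, and Csf1r was at no more than 1 count. The part of these markers in the results was not tested. The adipocyte and hepatocyte markers, cells rich in lipid synthesis, summed to at most 15.6 normalized counts, and the endothelial markers to at most 78.1.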

How the data were processed

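RNA-seq of 3 DMSO and 3 SD70 samples of Lewis cells was used, grouped by the sample labels. The authors aligned BGISEQ-500 reads to GRCm38.p6 with HISAT, according to the methods, while the submitters' processing notes list StringTie 1.3.3b and an older mouse build without a role. The counting tool is not given in the sources used here, nor is strandedness, so reads of overlapping genes cannot be told apart. The extraction protocol describes ground tissue, although the samples are labelled as cells. For each gene the authors deposited an expected count, not normalized and not always whole (8.84% to 9.28% of genes per sample), which was rounded. The authors also deposited a second value read here as FPKM from its values, normalized for gene length and library size. Acat2, Idi1, Fdft1 and Scd1 had counts that were not whole.

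Counts were filtered with filterByExpr, scaled by TMM (factors 0.984 to 1.02) and tested with edgeR 4.0.16 (quasi-likelihood, R 4.3.3), all 11552 genes in one fit, at an adjusted p under 0.01. Alternatives used DESeq2 1.42.0 and limma 3.58.1 (log2 of FPKM plus 1 or 0.1), library totals, other filters (at least 1 count in any sample, or 10 in every sample), a threshold of 0.05, the replicate number as a block, and each sample left out in turn. On simulated data with these library sizes and 11552 genes, edgeR passed 57 of 67 genes changed by 0.5 on the log2 scale, 62 of 67 changed by 1, 66 of 66 changed by 2 and 11 of 11352 unchanged genes. Far fewer genes were changed there than the 49.9% called in these data. The simulation thus does not show how scaling and test behave with so many changes. Within groups, samples differed by more than sampling noise (chi-square per gene 2.08 to 4.78), and all were kept. This does not tell whether the samples came from separate cultures.

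The genes and the lists were chosen with earlier results of these data known, and no test over a list was made. All genes that passed are named, with values per sample for those changed by 0.5 or more on the log2 scale and for up to 6 others, and at most 4 passing genes per related list, those with the largest change. Vldlr was not analysed here. A few genes of the related lists are not reported here and were left out of the counts and medians of those lists.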

Additional observations from a re-analysis of the deposited data

How the results depend on the processing

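Over 14 alternative settings, 16 of the 33 genes passed the test at the main setting and in every alternative. With the threshold of 0.05 included, lower genes numbered between 15 and 23 and higher genes between 2 and 4, where 19 and 3 were found. Cyp51, Dhcr7, Lss, Pmvk, Sc5d and Scd1 lost their call in at least 1 setting, and Fdps, Hsd17b7 and Idi1 gained one. At the threshold of 0.05, Nsdhl was called too (adjusted p = 0.047 by edgeR). For each of these the cause was not tested. DESeq2's Wald test called 5 sterol genes lower in place of 9. Library totals, limma on log2(FPKM + 1) and limma on log2(FPKM + 0.1) each called 1 sterol gene higher in place of 2. The median log2 fold change of all genes of the list, -0.25, was -0.29 with library totals and -0.30 with log2(FPKM + 0.1), and that of the fatty acid genes, -0.32, was -0.36 and -0.35. When single samples were removed, lower genes ranged from 15 to 19, sterol genes lower from 6 to 9 and sterol genes higher from 1 (without DMSO replicate 1) to 3 (without SD70 replicate 1, Tm7sf2 included). The median ranged from -0.29 to -0.22 for all genes, from -0.32 to -0.22 for the regulators and from -0.35 to -0.30 for the fatty acid genes. Genes past an absolute log2 fold change of 1 ranged from 0 to 1, the 1 being Tm7sf2 without SD70 replicate 1, which then entered the filter only through the remaining SD70 samples, so that this call is set by the filter and gives no support. Signs turned for Mvk, from -0.14 (without SD70 replicate 2) to 0.060 (without SD70 replicate 1), for Scap, from -0.023 (without SD70 replicate 3) to 0.12 (without SD70 replicate 1), and for Sqle, -0.0069 with library totals, -0.00012 with log2(FPKM + 1) and -0.00010 with log2(FPKM + 0.1). None of these had passed the test. The median over all genes tested moved to -0.04 with library totals.

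In the fit with a replicate block, 21 genes were lower and 3 higher, Idi1 and Fdps being added. Same-numbered samples had correlations of -0.0686, 0.0477 and 0.114 between their deviations over all 11552 tested genes. Over the 9624 genes with a mean count of at least 100 these were 0.176, 0.254 and 0.157, each above the correlations with other numbers, and over the 6363 genes with at least 500 they were 0.168, -0.0333 and -0.0361. The answer thus depends on the genes used, and the labels name nothing that a number shares. The fit without the block was kept.

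Precision is limited by 3 samples a group, by unstated strandedness and by 1 time and 1 cell line.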

Other observations

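Genes that use or burn fatty acids were also counted, beside shares of 24.2% lower and 25.8% higher over all genes tested. Of 14 genes of fatty acid activation and glycerolipid synthesis, 6 rose and 1 fell, with a median log2 fold change of 0.03. Gpat3, which adds the first acyl chain to glycerol phosphate, rose from 266 ± 19.9 to 1174 ± 138 normalized counts (SD, n = 3), a log2 fold change of 2.14 with an adjusted p of 1.33e-19 by edgeR. Dgat2, which makes triglyceride, rose from 13.9 to 27.7 normalized counts, at a log2 fold change of 0.99 that ran from 0.35 to 1.23 over the 14 alternative settings and passed in 9 of them. Its adjusted p was 0.040 by DESeq2 and, by edgeR, 0.021 without DMSO replicate 1, 0.024 without DMSO replicate 2, 0.016 without SD70 replicate 2 and 0.027 without SD70 replicate 3. Plin2, a lipid droplet coat protein, rose by 0.41 on the log2 scale, and Lpin2 fell by 0.42. Of 9 other elongation genes, with a median of 0.14, 3 rose, among them Hacd2 (0.60) and Elovl1 (0.35). Elovl3, an elongase of very long chains, had 1.95, 5.83 and 2.88 normalized counts with DMSO and 33.5, 43.7 and 61.6 with SD70, and its fitted log2 fold change of 3.65 ranged from 1.34 to 4.17 over the alternative settings. It passed the filter only through the SD70 samples, so it had to differ, and its count among the 3 gives no support.

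Of 18 tested genes of fatty acid oxidation, 8 fell (44.4%) and 0 rose by edgeR, with a median log2 fold change of -0.17. At an unadjusted p under 0.05 edgeR gave 11 lower and 2 higher, where the shares over all genes tested were 31.4% and 32.2%. DESeq2 called 7 lower and 0 higher, where the shares were 20.2% and 22.3%. Cpt1a, which takes fatty acids into mitochondria, fell by 0.57 on the log2 scale (adjusted p = 3.92e-11 by edgeR), and Acads, Acaa2 and Ppard had -0.46, -0.37 and -0.31. Fads3, the neighbor of Fads1 and Fads2 on chromosome 19, was added after its values were seen. It had 515, 557 and 577 normalized counts with DMSO and 842, 829 and 965 with SD70, a log2 fold change of 0.67 ± 0.07 (SE).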
